A study of Mus musculus with 2 samples.

Results

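The genes described here are 51 cyclins, cyclin-dependent kinases (CDKs) and regulators of the G1 phase of the cell cycle, chosen by gene symbol from the 55536 mouse genes of the deposited tables for GENCODE M21 (a mouse gene annotation), and all 51 were found. They were measured in whole limbs of B6NCrl mouse embryos at 12.5 days, in 1 group of 2 libraries. Replicate 1 came from a pool of 88 embryos and replicate 2 from a pool of 68 embryos, each of mixed sex. The RNA input was 10 ng for each of them. ERCC spike-in RNAs were added, cDNA was primed with oligo-dT, and it was cut by Nextera tagmentation. No treatment, genotype or time contrast exists, so the levels, their order, their transcripts and the difference between the libraries are what the data can show.

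Cyclins are subunits that switch on CDKs, and the pairs form in order as a cell passes through its cycle. D cyclins with Cdk4 or Cdk6, and then E cyclins with Cdk2, phosphorylate the retinoblastoma family of pocket proteins, which releases E2F transcription factors and starts DNA replication. A and B cyclins with Cdk2 and Cdk1 act in S phase and mitosis, and the INK4 and CIP/KIP proteins hold the kinases back. The limb bud at this stage is growing while its mesenchyme condenses into cartilage, and its muscles form from precursors that come from the somites.

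The gene counts summed to 29633457 and 30118921 reads, and spike-ins took 7.34% and 5.13% of the TPM (reads per effective length, scaled to the same sum in each library). Limb mesenchyme markers were at 1 TPM or more for 10 of 10 genes, and their summed level was 1002 TPM in replicate 1 and 1064 TPM in replicate 2. Cartilage, muscle, red blood cell, endothelium, macrophage and epidermis lists each had 5 of 5 genes at that level, while the neuron and liver lists had 2 of 5 each. In a bulk sample such as this, a lower level from fewer cells of a type and one from less RNA per cell cannot be told apart.

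Of the 51 members, 47 stood at 1 TPM or more in both libraries, where 58.1% of the 22028 protein-coding genes did (12802 genes). The median member was at 43.8 TPM over all 51. Among genes at 1 TPM or more in both libraries the median was 45.0 TPM for the members and 22.4 TPM for protein-coding genes. In both libraries 13 members were at 100 TPM or more: the D cyclins Ccnd1, Ccnd2 and Ccnd3, the mitotic and S phase cyclins Ccna2, Ccnb1 and Ccnb2, the kinases Cdk1, Cdk2, Cdk4 and Cdk9, the E2F partner Tfdp1, and the small CDK subunits Cks1b and Cks2. The exceptions at the bottom were Ccna1, Ccnb3, Cdkn2a and Cdkn2b.

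**Figure D1:**
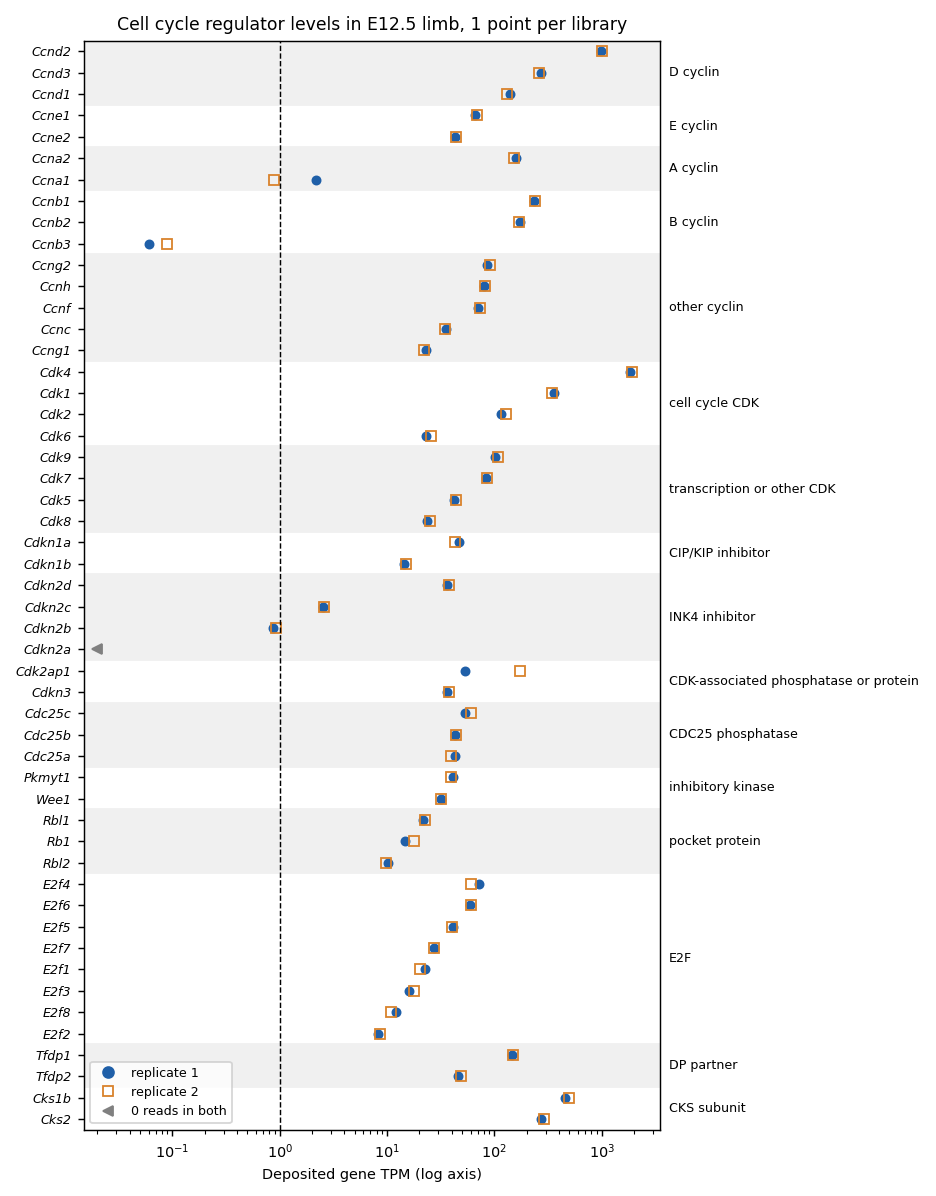
Deposited gene TPM of each of the 51 members (log axis) in replicate 1 (filled circles) and replicate 2 (open squares), grouped by role, with a dashed line at 1 TPM. Cdk4 and Ccnd2 lie farthest to the right, Cdkn2a is marked at the left edge for 0 reads in both libraries, and Cdk2ap1 is the member above 5 TPM whose 2 points lie clearly apart.

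The D cyclins carry growth signals to the cycle, and their order in this limb depended on which transcript entries were counted. Ccnd2 (ENSMUSG00000000184.12, mm10 chromosome 6, 127125162 to 127152193, minus strand) stood at 989 TPM in replicate 1 and 1008 TPM in replicate 2. Ccnd3 (ENSMUSG00000034165.16) stood at 272 and 258 TPM. Ccnd1 (ENSMUSG00000070348.5) stood at 139 and 132 TPM. The libraries overlapped closely for each, and on this measure Ccnd2 was 3.77-fold above Ccnd3. With the deposited M4 tables, which hold an earlier annotation, Ccnd2 was instead at 238 and 255 TPM and Ccnd3 at 286 and 273 TPM, and their difference was within the spread between the libraries. With transcripts that carry a CCDS tag (a coding sequence agreed between annotation groups) alone, Ccnd3 was higher, at 253 and 243 TPM against 156 and 172 TPM for Ccnd2.

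The number of reads given to Ccnd2 differed less between the annotations than its TPM. M21 assigned 28166 and 30363 reads to 8 Ccnd2 entries of 115 to 6330 nt, and M4 assigned 24969 and 26988 reads to 1 entry of 5701 nt. In M21 the leading entry was Ccnd2-206, a partial coding entry of 627 nt with 44.6% and 43.7% of the Ccnd2 TPM, followed by Ccnd2-207, a noncoding entry of 415 nt with 26.6% and 25.9%. The full-length Ccnd2-201 of 6330 nt held 15.8% and 17.1% of the TPM but 68.3% and 70.4% of the reads. Ccnd2-206 has 32 exon bases that no CCDS transcript of Ccnd2 has, so 94.9% of its bases are shared with Ccnd2-201. An antisense gene that shares 372 bases with Ccnd2-201, Gm43126, was at 23.2 TPM in replicate 1 and 10.3 TPM in replicate 2 and passed the test between the libraries. Its part in the Ccnd2 values was not tested.

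Ccnd1 was divided between a full transcript and a short intron-retaining entry. Ccnd1-202, of 470 nt, held 48.9% and 48.0% of the Ccnd1 TPM but 9.23% and 8.79% of its reads, and Ccnd1-201, the CCDS transcript of 3740 nt, held 47.2% and 49.8% of the TPM. The bases that set Ccnd1-202 apart are 95 intron bases directly before the exon that follows (mm10 chr7:144938103-144938197, minus strand). They are shown because about as much TPM as on the whole coding transcript rests on an entry marked by these letters, with the intron in capitals and 10 bases of the exon in lower case.
Ccnd1-202 intron bases: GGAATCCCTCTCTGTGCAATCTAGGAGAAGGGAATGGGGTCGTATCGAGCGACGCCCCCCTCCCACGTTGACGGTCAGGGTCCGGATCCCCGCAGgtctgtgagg

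Among the cell cycle kinases, Cdk4, the main partner of D cyclins, ranked 24 of all 22028 protein-coding genes by mean TPM. Cdk4 (ENSMUSG00000006728.12, chromosome 10, 127063534 to 127067920, plus strand) stood at 1846 and 1895 TPM. Cdk1, the mitotic kinase, stood at 358 and 346 TPM. Cdk2, the partner of E and A cyclins, stood at 115 and 128 TPM. Cdk6, the other D cyclin partner, stood at 23.2 and 25.9 TPM, which put Cdk4 76.2-fold above it on all M21 entries, 17.4-fold over CCDS transcripts and 109.6-fold in M4. All neighbours in this order differed beyond the spread between the libraries. Over CCDS transcripts alone the order changed, with Cdk1 at 205 and 222 TPM above Cdk4 at 154 and 163 TPM.

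The Cdk4 level rested mostly on entries other than the full coding transcript. Cdk4-201, the CCDS transcript of 2053 nt, held 8.32% and 8.59% of the Cdk4 TPM and a mean of 21.4% of its reads. Cdk4-209, a retained-intron entry of 468 nt, held 41.4% and 41.1% of the TPM, and 25 of its bases are not exon bases of any CCDS transcript of Cdk4. Those bases (chr10:127066076-127066100, plus strand) are printed in capitals before 10 bases of the exon they run into.
Cdk4-209 intron bases: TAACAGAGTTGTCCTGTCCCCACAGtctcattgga
The Cdk4-208 entry, which is annotated as a target of nonsense-mediated decay (breakdown of RNAs with an early stop codon), held 19.5% of the TPM in each library. It lacks a coding exon of 136 bases, a length that is no multiple of 3 (chr10:127064585-127064720, plus strand). Of the TPM on entries that span this exon, 33.3% and 33.1% was on Cdk4-208. The skipped exon is shown in capitals between 10 bases of each neighbouring exon.
Cdk4 skipped exon: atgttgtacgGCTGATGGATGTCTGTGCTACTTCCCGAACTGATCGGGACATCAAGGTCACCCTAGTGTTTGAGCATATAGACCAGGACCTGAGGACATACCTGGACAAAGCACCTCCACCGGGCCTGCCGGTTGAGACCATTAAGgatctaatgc

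Cdk2 had a coding cassette exon that differed between its 2 CCDS transcripts. Cdk2-201 stood at 77.4 and 91.7 TPM and Cdk2-202 at 25.1 and 24.5 TPM. Cdk2-202 carries an additional exon of 144 bases, or 48 codons (chr10:128699976-128700119, minus strand). Of the TPM on entries spanning this place, 23.3% in replicate 1 and 20.3% in replicate 2 contained the exon. It is printed because it separates 2 coding forms of the kinase, in capitals between 10 bases of each neighbouring exon.
Cdk2-202 exon: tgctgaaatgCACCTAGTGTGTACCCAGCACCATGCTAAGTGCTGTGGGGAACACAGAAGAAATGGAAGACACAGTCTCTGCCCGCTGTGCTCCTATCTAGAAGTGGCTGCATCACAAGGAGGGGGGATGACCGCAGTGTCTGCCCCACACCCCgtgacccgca
Cdk1 showed the same split into long and short entries as Cdk4, to a smaller degree. Its coding transcript Cdk1-202 held 56.0% and 63.0% of the TPM and 77.0% and 80.8% of the reads. The retained-intron entries Cdk1-203 of 378 nt and Cdk1-204 of 475 nt have 19 and 56 bases outside the CCDS exons, and held 19.2% ± 2.56 and 18.6% ± 2.6 of the TPM (SD, n = 2).
For Cdk6, the leading entry was Cdk6-203, a partial entry of 697 nt with 33.0% and 29.4% of the TPM, while the 11525 nt transcript Cdk6-202 held 26.7% and 27.0% of the TPM and 84.7% and 85.3% of the reads.

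**Figure D2:**
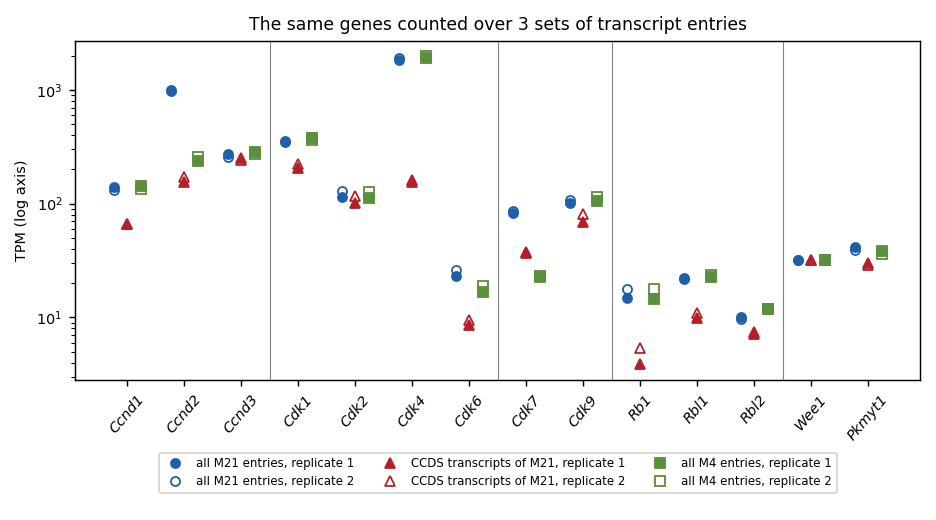
TPM (log axis) of 14 members in replicate 1 (filled) and replicate 2 (open), counted over all M21 entries (circles), over CCDS transcripts of M21 (triangles) and over all M4 entries (squares). Cdk4 drops from 1846 and 1895 TPM to 154 and 163 TPM when CCDS transcripts alone are counted, and Ccnd2 drops below Ccnd3. Wee1 has 1 M21 entry, with a CCDS tag, so both M21 measures are the same for it, at 32.0 and 31.8 TPM.

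Of the inhibitors of these kinases, the INK4 family ranged from 0 reads to 37.4 TPM. Cdkn2d stood at 36.0 and 37.4 TPM. Cdkn2c stood at 2.55 and 2.60 TPM. Cdkn2b had 22 and 24 reads, or 0.86 and 0.93 TPM. The order held in both libraries, and Cdkn2d was 14.3-fold above Cdkn2c. Cdkn2a, a tumour suppressor locus that is silent in many normal tissues, had 0 reads in each library. A limit of 3 reads on its shorter entry is worth 0.202 TPM in replicate 1 and 0.200 TPM in replicate 2. These limits cover counting error only. The authors' interval for the level of Cdkn2a reached higher, to 0.302 TPM in replicate 1 and 0.300 TPM in replicate 2.

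Of the CIP/KIP inhibitors, Cdkn1a, a target of p53, stood at 46.8 and 43.2 TPM. Cdkn1b, an inhibitor of Cdk2 complexes, stood at 14.4 and 15.0 TPM. The libraries lay close for each, and Cdkn1a was 3.05-fold higher. The remaining gene of this family, Cdkn1c, is not among the 51 but belongs to the list of p53 targets and growth arrest genes, and it stood at 1139 and 1093 TPM, above every member except Cdk4. All 3 entries of Cdkn1b carry a CCDS tag, so all of its TPM was on CCDS transcripts.

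Of the E cyclins, which act with Cdk2 at the entry into S phase, Ccne1 stood at 66.1 and 68.3 TPM. Ccne2 stood at 43.3 and 44.3 TPM. Ccne1 was 1.53-fold higher, beyond the spread between the libraries. Reads divided by no length gave a log2 ratio of 0.06, within the spread.

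The A and B cyclins each had 1 member near or below 1 TPM. Ccna2, the A cyclin of somatic cells, stood at 159 and 154 TPM. Ccna1, known for its role in male germ cells, had 37 and 24 reads and 2.16 and 0.88 TPM. The Ccna1 TPM differed more than its reads, and in replicate 1 the partial 391 nt entry Ccna1-206 held 36.6% of the TPM with 4.55 expected reads, against 0 in replicate 2. Ccnb1 stood at 236 and 240 TPM. Ccnb2 stood at 174 and 171 TPM, all of it on Ccnb2-201, its 1 entry. These B cyclins, which drive mitosis with Cdk1, were thus within 1.38-fold of each other, a difference beyond the library spread. Ccnb3, a cyclin of meiosis, had 5 and 8 reads, or 0.06 and 0.09 TPM. Processed copies of these genes took few reads, with Ccnb1-ps at 1.16 and 1.08 TPM and Ccnb2-ps at 2.81 and 1.87 TPM.

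Cks1b and Cks2, small proteins that bind CDKs and help them reach their substrates, were among the higher members. Cks1b stood at 457 and 494 TPM. Cks2 stood at 274 and 290 TPM. The order was the same in both libraries, and Cks1b was 1.68-fold higher. Their CCDS transcripts held 96.9% of the TPM for Cks1b and, as its 1 entry carries a CCDS tag, 100% for Cks2.

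The phosphatases that switch CDKs on and the kinases that switch them off lay close together, between 31.8 and 60.3 TPM. Cdc25c stood at 53.7 and 60.3 TPM. Cdc25b stood at 43.3 and 44.2 TPM. Cdc25a, which acts earlier in the cycle, stood at 43.4 and 39.5 TPM. Cdc25a and Cdc25b were not separated by more than the library spread, and the difference of Cdc25b and Cdc25c, 1.30-fold, was beyond it in M21 but not in M4 or over CCDS transcripts. Pkmyt1, the membrane-bound inhibitory kinase, stood at 41.5 and 39.2 TPM. Wee1, its nuclear counterpart, stood at 32.0 and 31.8 TPM. Pkmyt1 was 1.26-fold higher in M21 and within the spread in M4, while over CCDS transcripts Wee1 was higher, at 32.0 and 31.8 TPM against 30.1 and 28.9 TPM, within the spread.

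The pocket proteins were the lowest of the roles whose members all passed 1 TPM, at a summed 46.5 and 49.8 TPM. Rbl1, the pocket protein of cycling cells, stood at 21.6 and 22.4 TPM. Rb1 (ENSMUSG00000022105.6, chromosome 14, 73183673 to 73325822, minus strand), the retinoblastoma gene, stood at 14.7 and 17.7 TPM. Rbl2, best known from resting cells, stood at 10.2 and 9.68 TPM. Rb1 and Rbl1 were not separated by more than the library spread, and Rb1 was 1.63-fold above Rbl2, a difference within the spread in M4. Over CCDS transcripts the order of Rb1 and Rbl2 turned, with Rb1 at 3.86 and 5.39 TPM and Rbl2 at 7.19 and 7.40 TPM, a difference within the spread, and Rbl1 was then separated from Rb1.

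Most of the Rb1 TPM lay on entries with no base in common with its coding transcript. Rb1-206, a noncoding entry of 408 nt, held 47.3% and 41.1% of the TPM with 42.4 and 44.9 expected reads. It shares 0 bases with Rb1-201, lies inside intron 17 of that transcript, and all 408 of its bases are exon bases of Lpar6, a receptor gene on the opposite strand that stood at 14.5 and 16.3 TPM. Rb1-202, of 411 nt, held 22.8% and 15.2%, also shares 0 bases with Rb1-201, and 383 of its bases are exon bases of Rcbtb2 on the opposite strand, at 134 and 148 TPM. Rb1-201 held 26.3% and 30.4% of the TPM and 82.9% and 84.5% of the reads. Whether counting used strand is not given in the sources used here, and where it does not, reads of a gene and its antisense neighbour cannot be told apart.
Rbl1 had a long intron-retaining entry. Rbl1-202, of 2383 nt, held 42.4% and 43.7% of the TPM and 28.8% and 29.2% of the reads, next to 45.4% and 48.7% of the TPM on the coding Rbl1-201.

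**Figure D3:**
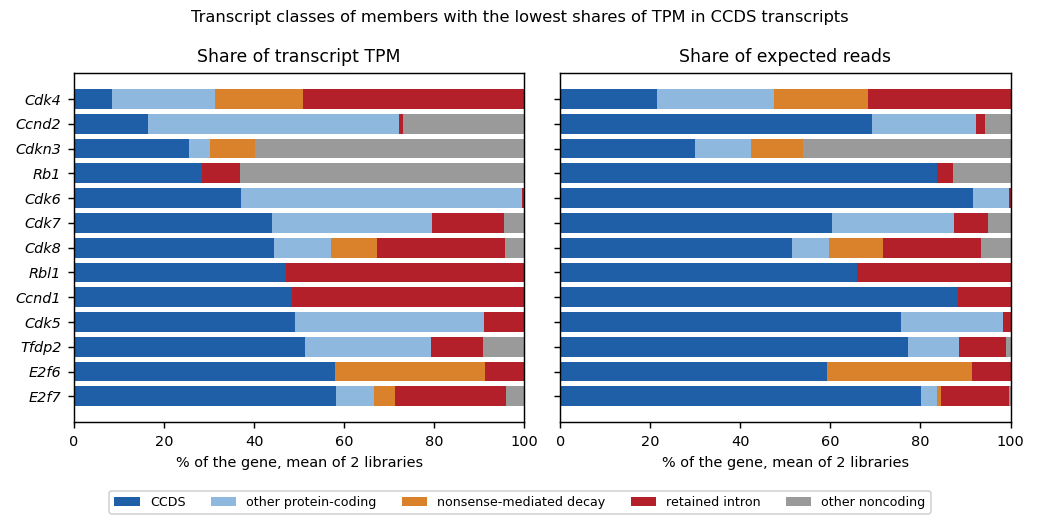
Stacked shares of transcript classes (percent of the gene, mean of the 2 libraries) for the 13 members at a mean of 1 TPM or more with under 60% of their TPM on CCDS transcripts, for TPM (left) and for reads (right). For Rb1 the CCDS part is 28.4% of the TPM and 83.7% of the reads, while for Cdk4 it stays low on both, at 8.46% and 21.4%.

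The E2F factors, which pocket proteins hold in check, spanned a range from 8.29 to 71.3 TPM, and all 8 passed 1 TPM. E2f4, a factor that represses with Rbl1 and Rbl2, stood at 71.3 and 60.3 TPM. E2f6, a repressor that binds no pocket protein, stood at 59.9 and 60.4 TPM, not apart from E2f4. E2f5, a close relative of E2f4, stood at 40.8 and 40.3 TPM. These 3 repressors formed the upper part of the order on all entries and on CCDS transcripts. The atypical factors E2f7 and E2f8, which block transcription without a DP partner, were at 27.3 and 27.5 TPM for E2f7 and at 12.0 and 10.9 TPM for E2f8, so E2f7 was 2.38-fold higher. The activators E2f1, E2f3 and E2f2 stood at 22.5 and 20.3, at 16.0 and 17.9, and at 8.29 and 8.65 TPM. Over CCDS transcripts E2f5 came before E2f6, at 40.3 and 39.1 against 35.9 and 33.9 TPM, within the spread between the libraries. On that measure E2f1 came before E2f7, at 22.5 and 20.3 against 16.3 and 15.6 TPM, beyond the spread. On all entries E2f1 and E2f3 differed by less than the spread between the libraries, and E2f1 was 2.53-fold above E2f2. Tfdp1, the main DP partner that E2F factors need to bind DNA, stood at 147 and 149 TPM. Tfdp2, the other partner, stood at 45.3 and 48.4 TPM, and Tfdp1 was 3.15-fold higher, or 5.07-fold over CCDS transcripts.

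E2f6 had an alternative exon with a stop codon. The entry E2f6-204, annotated as a target of nonsense-mediated decay, held 29.0% of the TPM in replicate 1 and 33.6% in replicate 2, and the coding E2f6-201 held 59.9% and 56.0%. The exon of 66 bases (chr12:16813847-16813912, plus strand) was in 31.9% and 36.7% of the TPM on entries that span it. Its start is printed to show where the reading frame ends, with 30 coding bases in lower case and the stop codon in capitals (chr12:16813847-16813879).
E2f6-204 exon start: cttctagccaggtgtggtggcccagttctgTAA

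The remaining kinases act mainly in transcription or in neurons. Cdk9, the kinase of transcription elongation, stood at 100 and 108 TPM. Cdk7, which activates other CDKs and phosphorylates RNA polymerase, stood at 83.6 and 85.5 TPM. Its cyclin Ccnh stood at 80.0 and 81.9 TPM. Cdk7 and its cyclin thus lay near each other over all M21 entries. Over CCDS transcripts Cdk7 was at 37.9 and 36.5 TPM and Ccnh at 63.9 and 61.7 TPM. M4 placed Cdk7 at 23.0 and 22.6 TPM and Ccnh at 83.8 and 86.0 TPM. M4 has 1 Cdk7 entry of 7595 nt with 3227 and 3200 reads, and M21 has 5 entries of 681 to 1988 nt with 2298 and 2330 reads. Cdk9 was 1.23-fold above Cdk7 in M21, just beyond the spread, 2.01-fold above it over CCDS transcripts and 4.84-fold in M4. Cdk8, a kinase of the Mediator complex, stood at 23.5 and 24.9 TPM, and its cyclin Ccnc at 35.8 and 34.7 TPM. Cdk5, a kinase best known from neurons, stood at 42.0 and 43.4 TPM in M21 and 28.7 and 29.1 TPM in M4. Its activating partner Cdk5r1 stood at 3.70 and 3.83 TPM.

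Exons of whole codons separated the main entries of Cdk5, Cdk7 and Ccnh. Cdk5-203 lacks a coding exon of 96 bases (chr5:24420955-24421050, minus strand) and held 43.6% and 48.6% of the TPM on entries spanning it. Cdk7-205 lacks a coding exon of 111 bases (chr13:100717572-100717682, minus strand) and held 36.1% and 37.1%. Ccnh-202 lacks the first 108 bases of a coding exon (chr13:85202333-85202440, plus strand) and held 37.6% and 39.3%. Each length is a multiple of 3, of 32, 37 and 36 codons. They are set side by side, in capitals between 10 bases of flanking exon sequence, as the bases on which these splits rest.
Cdk5 skipped exon: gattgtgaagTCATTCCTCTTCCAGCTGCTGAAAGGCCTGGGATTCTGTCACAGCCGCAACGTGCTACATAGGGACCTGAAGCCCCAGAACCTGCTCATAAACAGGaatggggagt
Cdk7 skipped exon: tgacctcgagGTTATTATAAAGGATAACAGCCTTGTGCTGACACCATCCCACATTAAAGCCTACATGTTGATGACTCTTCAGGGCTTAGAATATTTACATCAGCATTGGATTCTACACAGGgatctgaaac
Ccnh exon part: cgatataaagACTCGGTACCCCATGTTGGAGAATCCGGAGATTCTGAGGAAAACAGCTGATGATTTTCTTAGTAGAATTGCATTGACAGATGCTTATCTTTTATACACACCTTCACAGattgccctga

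Cyclins of other kinds filled the middle of the range. Ccng2, a cyclin linked to cell cycle arrest, stood at 85.0 and 90.8 TPM. Ccnf, the F-box cyclin of a ubiquitin ligase, stood at 70.8 and 74.0 TPM. Ccng1, a target of p53, stood at 22.8 and 22.0 TPM. Ccng2 was not separated from Ccnh, nor Ccnh from Ccnf, by more than the spread, and Ccng2 was 3.92-fold above Ccng1. Ccng2 was divided between Ccng2-201, with 46.5% and 41.7% of the TPM, and Ccng2-202, with 39.4% and 41.7%, which have the same coding sequence and differ at their 5′ ends. Cdkn3, a phosphatase that acts on Cdk2, stood at 36.3 and 38.0 TPM, and its leading entry was noncoding. Cdkn3-202 held 59.8% ± 0.288 of its TPM (SD, n = 2) and lacks a coding exon of 83 bases (chr14:46762528-46762610, plus strand), whose sequence is printed in capitals within its neighbours.
Cdkn3 skipped exon: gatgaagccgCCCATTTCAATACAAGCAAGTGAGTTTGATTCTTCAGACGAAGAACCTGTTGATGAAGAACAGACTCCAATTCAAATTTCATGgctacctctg

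Among 48 members with a mean of 1 TPM or more, 14 had a second entry with at least 25% of their transcript TPM: Ccnd1, Ccnd2, Ccnc, Ccng2, Ccnh, Cdk5, Cdk6, Cdk7, Cdkn2c, Cdkn3, Rb1, Rbl1, E2f6 and E2f8. Ccnc had Ccnc-203 with 55.7% and 50.7% and Ccnc-202 with 37.5% and 34.2%, both with a CCDS tag. Cdkn2c had Cdkn2c-202 with 72.0% and 73.1% and Cdkn2c-201 with 28.0% and 26.9%, which share their coding sequence. E2f8 had E2f8-201 with 63.3% and 50.3% and E2f8-202 with 24.4% and 28.6%, which also share it. In 43 of the 48 members the leading entry carried a CCDS tag, and the other 5 were Ccnd2, Cdk4, Cdk6, Cdkn3 and Rb1. CCDS transcripts held a median of 83.5% of the TPM of these members, against 79.8% for all protein-coding genes of that level with such a transcript. No share over all genes is given for the counts of 14 and 43, so those counts describe the members only.

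Paralogues were compared in 26 pairs, and 25 had reads for both genes. A pair was counted as separated when the smaller of its 2 log2 TPM ratios exceeded the 95th percentile of the absolute difference between the libraries among the 500 genes whose level came closest to that of the lower gene. By this measure 22 of the 25 pairs were separated in the same direction in both libraries, and Cdc25a with Cdc25b, Rb1 with Rbl1 and E2f1 with E2f3 were not. The share of other gene pairs that would pass is not given here, so the count shows no trait particular to paralogues. The 2 libraries are separate pools of 1 strain, so this spread covers pools and library making, not other strains or stages. The choice of transcript entries, which turned the direction of some pairs, is not covered either.

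**Figure D4:**
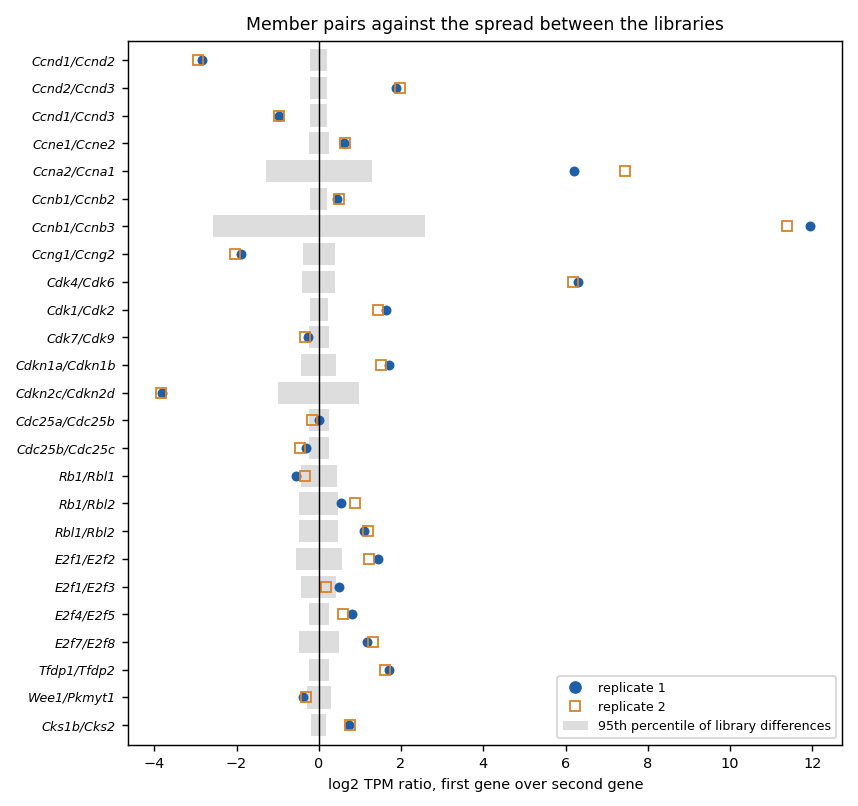
The log2 TPM ratio of the first gene over the second gene for 25 member pairs in replicate 1 (filled circles) and replicate 2 (open squares), over grey bars that give the 95th percentile of the difference between libraries at that level. In 22 pairs both points lie outside the bar on the same side, with Ccnb1 over Ccnb3 farthest out and Cdc25a over Cdc25b around 0.

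Between the libraries, 1 of the 48 tested members differed by the rule used for all genes, which asks for a 2-fold TPM ratio and an adjusted p below 0.05. Over all 15926 genes tested 170 did, or 1.07%, and 97 of them, or 0.609%, were higher in replicate 2. The test compares these 2 libraries and not conditions. The median log2 ratio of replicate 2 over replicate 1 was 0.03 for the tested members and 0.01 for all genes tested. These TPM ratios were not corrected for the spike-in share of TPM, 7.34% in replicate 1 and 5.13% in replicate 2. The median absolute log2 ratio was 0.06 for the members and 0.12 for all genes tested, which were not matched to the members in level. Whatever the fold, 13 of the 48 members had an adjusted p below 0.05 by the exact binomial test, against 19.2% of all genes tested. The 45 members at a mean of 5 TPM or more that were not called lay between -0.24 (E2f4) and 0.27 (Rb1).

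The member called was Cdk2ap1 (ENSMUSG00000029394.11, chromosome 5, 124345417 to 124363082, minus strand), whose protein binds Cdk2 and restrains it. It had 1217 reads and 53.4 TPM in replicate 1, and 3831 reads and 173.6 TPM in replicate 2. Replicate 2 was 3.25-fold higher (log2 ratio 1.70, exact binomial test with edgeR TMM library sizes, adjusted p = 5.79e-299). This p treats amplified reads as independent and covers counting error only. With the spread between the libraries over all genes included, a common coefficient of variation of 7.2%, edgeR's exact test gave an adjusted p of 3.69e-22 for Cdk2ap1 between the libraries. The authors' interval for the level within a library was 48.2 to 55.8 TPM in replicate 1 and 160.4 to 176.6 TPM in replicate 2, so the intervals do not overlap. The M4 tables gave 56.4 and 183.9 TPM.

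The Cdk2ap1 difference was in its main transcript and in some of the lesser ones. Cdk2ap1-201, the CCDS transcript, stood at 47.0 and 142.8 TPM. Cdk2ap1-202, which starts at another exon, stood at 4.87 and 22.2 TPM. Cdk2ap1-203, which begins upstream in the exon that follows, was listed at 0 in replicate 1 and at 6.78 TPM in replicate 2. Cdk2ap1-204 was nearly level, at 1.58 and 1.73 TPM. The other 6 genes within 100 kb that were tested were not called, among them Sbno1 at 69.5 and 87.2 TPM, Kmt5a at 38.9 and 48.3 TPM and Mphosph9 at 15.4 and 15.0 TPM. Its relative Cdk2ap2 stood at 52.4 and 53.4 TPM. Some Cdk2ap1 reads were shared with other entries, since its expected counts were not whole. Of the marker lists, those of neuron and limb mesenchyme summed to more in replicate 2, the library in which Cdk2ap1 was higher. The 5 neuron markers summed to 12.9 TPM in replicate 1 and 20.8 TPM in replicate 2. Of these, Tubb3 stood at 7.13 and 11.5 TPM and Stmn2 at 5.66 and 8.79 TPM, neither called at 2-fold, and Elavl3, Neurod1 and Olig2 were below 1 TPM in both libraries. The 10 limb mesenchyme markers summed to 1002 and 1064 TPM, and none was called. In this list Prrx1, Tbx5 and Meis2 were lower in replicate 2 and the other genes higher. Tbx5 stood at 39.96 and 28.38 TPM, Pitx1 at 135.56 and 163.98 TPM and Tbx4 at 30.6 and 35.1 TPM. The 5 cartilage markers summed to less in replicate 2, at 820 and 706 TPM, with Acan and Matn1 called. The 5 epidermis markers did too, at 328 and 291 TPM, and none was called. Muscle (517 and 495 TPM), red blood cell (8428 and 8378 TPM) and endothelium (108 and 107 TPM) also summed to less in replicate 2. So did macrophage (71.6 and 68.7 TPM) and liver (7.3 and 4.84 TPM). No muscle, red blood cell, endothelium, macrophage or liver marker was called. The part of the marker lists in the Cdk2ap1 difference was not tested.

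**Figure D5:**
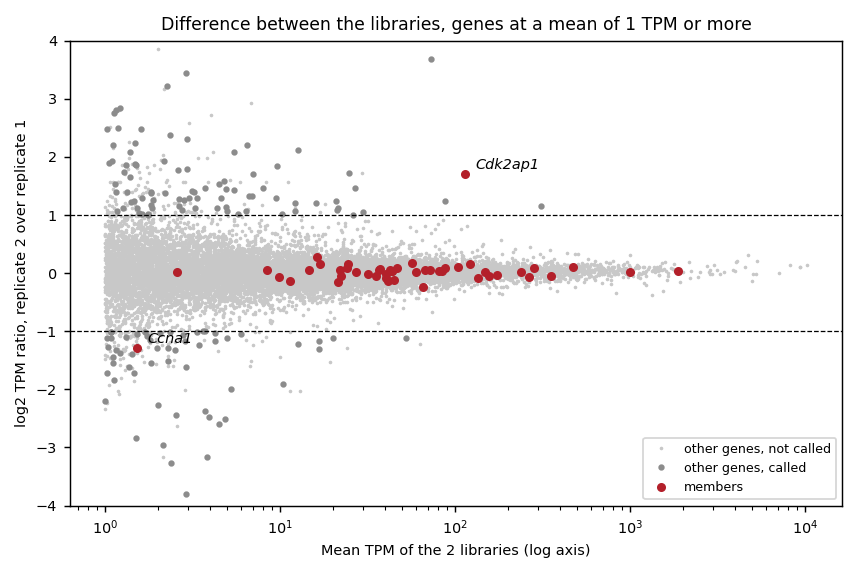
The log2 TPM ratio of replicate 2 over replicate 1 against the mean TPM (log axis) of 15926 genes, with called genes in dark grey, members in red and dashed lines at 2-fold. Cdk2ap1 is the member called, at 1.70, and Ccna1 lies at -1.30 without passing the test; 7 genes beyond the axis and 160 genes at 0 in 1 library are not drawn.

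The genes that work beside the members were measured as well, from lists chosen by function. No gene of the 5 lists was called between the libraries, where 65 of their 71 genes were tested. The share called over all genes tested was 1.07%. Of 16 other cyclins 14 were at 1 TPM or more in both libraries, at a median of 26.4 TPM, from Ccnl2, a cyclin of RNA splicing, at 188 and 204 TPM to Ccno, a cyclin of ciliated cells, at 0.29 and 0.17 TPM. Of 20 other CDKs and their partners 15 were, at a median of 12.6 TPM, from Cdk16 at 110.6 and 99.9 TPM to the neuronal Cdk5r2 at 0 and 0.04 TPM. The ubiquitin ligase list had the highest median of the 5. All 15 ubiquitin ligase subunits were at 1 TPM or more, at a median of 86.2 TPM, from Skp1a at 680 and 778 TPM to Fbxw7, which marks cyclin E for breakdown, at 9.16 and 8.65 TPM. All 8 genes of the MuvB, B-Myb and FoxM1 group, which drives late cell cycle genes, were too, at a median of 27.3 TPM, from Rbbp4 at 451 and 483 TPM to Mybl1 at 2.29 ± 0.304 TPM (SD, n = 2). All 12 p53 and growth arrest genes were, at a median of 34.0 TPM, with Cdkn1c highest and Sesn2 lowest at 8.58 and 8.99 TPM.

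How surely reads belong to a member varied. Expected counts were whole in both libraries for 33 members, within 0.005 reads, and fractional for 18, which include Ccnd2, Cdk4, Rb1 and Cdk2ap1 and mark reads shared with other entries. Exons of 22 members overlap exons of another gene, in 20 of them a gene on the opposite strand. The shares over all genes are not given for these counts, so they describe the members only. Cdk4 shares 641 bases with Tspan31, at 134 and 137 TPM, and Ccnd1 shares 1100 bases with LTO1, at 21.8 and 20.8 TPM. Cdk4-209, Cdk4-205 and Cdk4-208, the entries with the largest shares of the Cdk4 TPM, have no bases in exons of Tspan31.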

How the data were processed

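Gene and transcript tables of both libraries hold expected counts, TPM, FPKM and IsoPct (percent of a gene's TPM per transcript) as deposited by the authors, per the file headers, for GENCODE M21 and M4 on mm10. The authors' TPM covers spike-ins and tRNA entries. For the aligner, the quantification program and the strand setting, no entry was given in the sources used here. M21 was the main table, and genes other than mouse gene entries were left out.

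The members and all gene lists were chosen with earlier results of these data known. Expected counts were rounded, and each gene with a mean of 1 TPM or more was compared between the libraries by an exact two-sided binomial test (scipy 1.17.1) with TMM library sizes from edgeR 4.0.16 and Benjamini-Hochberg adjustment over all genes tested, called at an adjusted p under 0.05 and a 2-fold TPM ratio. The script was tested on simulated counts of 15926 genes, 200 of them changed 3-fold. It called 188 of the changed genes in the right direction, and also 20 of the 15726 unchanged genes. With 2 libraries of 1 group, p-values measure the difference between these libraries only. Levels are given per library, or as mean ± SD over n = 2 libraries. A count of 0 was given a limit of 3 reads. Alternatives used DESeq2 1.42.0 size factors, total counts, other filters, M4, FPKM, CCDS transcripts and 1 library left out.

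All 51 members were accounted for by role. Values per library were given for the highest and lowest of each role, pair members, called members and members that differ over 1.5-fold between M21 and M4. Printed sequences were read from the GENCODE M21 transcripts by the exon positions of the same release, and no promoter or protein sequence was used.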

Additional observations from a re-analysis of the deposited data

How the results depend on the processing

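Cdk2ap1 was called, and no other member, under all 8 alternatives of the library comparison. Over all genes, the 170 calls became 378 with no filter beyond 1 read, 38 at a mean of 5 TPM, 432 at a 1.5-fold ratio, 95 by the ratio of TPM + 1 and 99 by edgeR's exact test with a common dispersion. The 47 members at 1 TPM or more became 49 at 0.5 TPM and 46 at 5 TPM, and 47 to 48 with 1 library left out. The 22 separated pairs became 18 to 23 under other settings and 22 to 24 with 1 library left out. The direction turned with M4 for Ccnd2 over Ccnd3 (log2 ratio -0.18) and over CCDS transcripts, an alternative chosen after seeing the data, for Ccnd2 over Ccnd3 (-0.60), Rb1 over Rbl2 (-0.68) and Wee1 over Pkmyt1 (0.11). With counts not divided by length it turned for Cdc25b over Cdc25c (0.10), Rb1 over Rbl2 (-0.61) and Wee1 over Pkmyt1 (0.48). The 14 members with a second entry of 25% became 9 by share of expected counts, 9 with M4, 33 at 10%, 4 at 40% and 15 to 17 with 1 library left out. The cause of these changes was not tested. Counting error limits Ccna1, Ccnb3, Cdkn2a and Cdkn2b, which had 37 reads or fewer per library. The library comparison has no value with 1 library left out.
No paired analysis was possible because the design has 1 group.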
